A study of Mus musculus with 13 samples.

Results

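The genes of the MHC class I presentation pathway were followed across 13 mouse mRNA libraries. The 10 members were chosen by gene symbol and make up 10 of the 21073 genes in the expression table: the heavy chain genes H2-K1 (Entrez 14972) and H2-D1 (14964), the light chain gene B2m (12010), the peptide loading genes Tap1 (21354), Tap2 (21355) and Tapbp (21356), the immunoproteasome genes Psmb8 (16913), Psmb9 (16912) and Psmb10 (19171), and the transactivator gene Nlrc5 (434341). Every member was found and passed the filter on low values in each comparison.

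Experimental autoimmune encephalomyelitis (EAE), a mouse model of multiple sclerosis, is started by immunizing mice against a myelin peptide, here MOG35-55 in complete Freund's adjuvant on a C57BL/6J background. In DKI mice, knock-in changes of both STAT5 genes let the transcription factor pair but keep it from forming tetramers. The study asked what these tetramers do in monocytes and, through the chemokine CCL17, in Th17 cells. All 3 myeloid groups were DKI, were sorted on day 14 after immunization that included pertussis toxin, and hold 1 library each: antigen-presenting cells of the spinal cord that derive from monocytes (APCs), spinal cord monocytes and bone marrow monocytes. The Th17 groups came from mice immunized without the toxin. Their spleen and lymph node cells were taken on day 14, expanded with the peptide under Th17 conditions and sorted for CD4+ T cells 3 days later. They comprise DKI cells with CCL17 in the culture (n = 3), DKI cells named as without CCL17 (n = 3), DKI cells (n = 2) and WT cells (n = 2), so that 11 of the 13 libraries are DKI. No label names an experiment or batch, so which Th17 groups were cultured together is not known. The labels do not say whether libraries of a group came from separate mice or cultures, so the p-values measure only the spread between these libraries, which may be technical.

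Class I molecules show short peptides from inside the cell to CD8+ T cells, and nearly every nucleated cell makes them. The proteasome cuts proteins into peptides, TAP carries the peptides into the endoplasmic reticulum, tapasin holds empty class I molecules at TAP, and a heavy chain with β2-microglobulin takes the peptide to the surface. Interferons raise the whole set, in which the immunoproteasome subunits take the places of the standard catalytic subunits, and NLRC5 joins RFX, CREB and NF-Y proteins on the class I promoters.

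Estimated assigned reads ranged from 12500000 to 31800000 per library. The labelled cell types were checked against their markers. The summed RPKM (reads scaled to transcript length and to the assigned reads of the library) of 6 T cell markers was 1708 to 2647 in the Th17 libraries, while of the 2 CD8 T cell markers Cd8a was at most 0.706 RPKM and Cd8b1 was 3.57 to 9.03 RPKM. Over 8 myeloid markers the sum was 15113 to 20541 in the myeloid libraries. In the Th17 cultures it was 640 to 1026 in the 6 libraries of the CCL17 comparison but 20.4 to 87.1 in the 4 DKI and WT libraries. The sum over 6 microglia markers was 351 in the cord APCs and 119 in the cord monocytes, against 11.1 in marrow monocytes. Granulocyte markers summed to 54.7 in cord monocytes, against 1300.5 in marrow monocytes. T cell markers summed to 23.9 in cord APCs and 22.5 in cord monocytes, against 0.0801 in marrow monocytes. Since the samples are bulk RNA, a change in the mix of cells and a change in RNA per cell cannot be told apart. The knock-in leaves the STAT5 transcripts in place, so transcript levels do not check the DKI label.

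The promoters of the class I heavy and light chain genes carry the letters that the pathway's regulators are known to read, and the stretches are shown for that reason. The RefSeq promoter table (build GRCm38.p6, a patch release of the mm10 assembly) held 8 of the 10 members, all but Tap2 and Nlrc5. In the stretches below, printed 5′ to 3′ on the gene's strand and ending at the base before an annotated start, capitals mark TGACG, a CREB-like core, and ATTGG, the CCAAT box of NF-Y read from the other strand. In B2m they also mark GAAACTGAAA, a match to the core of the interferon-stimulated response element (GAAA, any 2 bases, GAAA). For H2-K1, which has several annotated starts, the more downstream of the 2 starts in the table was used.
H2-K1 (chr17:34000334-34000483, reverse strand): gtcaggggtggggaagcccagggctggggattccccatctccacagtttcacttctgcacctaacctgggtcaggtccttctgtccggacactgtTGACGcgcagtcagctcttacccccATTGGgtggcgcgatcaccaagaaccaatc
H2-D1 (chr17:35262944-35263093, forward strand): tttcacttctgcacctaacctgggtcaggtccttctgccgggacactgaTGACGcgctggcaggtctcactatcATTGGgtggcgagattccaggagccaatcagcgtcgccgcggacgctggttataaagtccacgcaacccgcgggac
B2m (chr2:122147537-122147686, forward strand): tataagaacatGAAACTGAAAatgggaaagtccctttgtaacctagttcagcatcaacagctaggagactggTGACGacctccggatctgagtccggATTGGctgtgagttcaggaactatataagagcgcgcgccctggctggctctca

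In all 3 stretches TGACG and ATTGG begin 25 bases apart. The first base of TGACG lies at -55 in H2-K1, -101 in H2-D1 and -78 in B2m, counted back from the start. Among 32851 RefSeq promoter windows of 250 bases, read on both strands, this spaced pair occurred in 30 (0.0913%), which belong to 26 of 27025 genes and include the class Ib gene H2-M3 besides these 3 members. The spacing was taken from the members' own matches, so the share is a description and no test. Alone, TGACG occurred in 17.8% of the windows and CCAAT, read on both strands and so including ATTGG, in 33.9%.

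Tap1 and Psmb9 are transcribed away from each other from starts 226 bases apart, and share the interval between them. TGACG, in capitals, stands there on the forward strand at -86 from the Tap1 start.
Tap1 and Psmb9 interval, on the Tap1 strand (chr17:34187331-34187555, forward strand): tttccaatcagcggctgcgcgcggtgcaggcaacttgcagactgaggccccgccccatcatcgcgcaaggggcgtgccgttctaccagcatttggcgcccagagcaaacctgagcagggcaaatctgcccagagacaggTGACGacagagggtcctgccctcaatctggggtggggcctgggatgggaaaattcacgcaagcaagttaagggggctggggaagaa

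The remaining promoters in the table lacked TGACG within 250 bases. Psmb8 had TTCCCAGAA at -97, a match to the GAS letters TTCNNNGAA that STAT dimers are known to bind, which occurred in 7.02% of windows. The exact letters of the interferon response element core were found in B2m among the members and in 2.98% of all windows. Near matches that differ by a base were not searched, so the other promoters are not shown to lack such an element. Tapbp had CCAAT letters alone, and Psmb10 had none of the 4 motifs. A match is not a binding site. Of the members, 7 lie on chromosome 17, in the MHC (H2-K1 at chr17:33996012-34000619 and H2-D1 at chr17:35263094-35267497, with Tap1, Tap2, Psmb8, Psmb9 and Tapbp within the same region). Psmb10 (chr8:105935728-105938392) and Nlrc5 (chr8:94434335-94527272) are on chromosome 8, and B2m is at chr2:122147687-122153082.

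Levels are given as log2(RPKM + 1), which is scaled to transcript length, so that genes can be set beside each other. B2m was the highest member in all 13 libraries. The lowest was Nlrc5 or Psmb10. Even the lowest member stood above 74.3% of all genes in marrow monocytes and above 96.2% in WT replicate 1. The median over the members ran from 7.06 in marrow monocytes to 8.10 in WT replicate 1.

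H2-K1, the heavy chain of H-2K, was 10.87 in cord APCs, 10.60 in cord monocytes and 8.76 in marrow monocytes. Its Th17 values were 9.86, 10.09 and 10.13 with CCL17, 9.91, 10.28 and 10.23 without CCL17, 10.24 and 10.58 in DKI cells, and 10.98 and 10.52 in WT cells. Marrow monocytes were thus the lowest of the 13 libraries and WT replicate 1 the highest, with overlap between neighbouring Th17 groups. H2-D1, the heavy chain of H-2D, was 10.52, 10.35 and 9.48 in the same order of myeloid groups. It was 9.38, 9.58 and 9.65 with CCL17, 9.44, 9.79 and 9.78 without, 9.47 and 9.77 in DKI cells, and 10.09 and 9.71 in WT cells. Here both cord libraries lay above every Th17 library, and marrow monocytes fell among the Th17 values.

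B2m, which encodes the light chain of all class I molecules, was 12.94 in cord APCs and 12.95 in cord monocytes, against 11.06 in marrow monocytes. It was 11.17, 11.40 and 11.38 with CCL17, 11.25, 11.54 and 11.56 without, 11.02 and 11.53 in DKI cells, and 11.64 and 11.36 in WT cells. The cord libraries stood over 1 log2 unit above all others, and the 4 Th17 groups overlapped. The H2-K1 and H2-D1 levels are uncertain to the extent that the genes share sequence with other class I genes. Of the distinct 50-base windows of their annotated transcripts, 9.63% of H2-K1 and 12.8% of H2-D1 also occurred in transcripts of other genes, mostly each other, H2-Q7, H2-Q10 and H2-Q1. For B2m, Psmb9, Psmb10 and Nlrc5 the share was 0%.

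**Figure D1:**
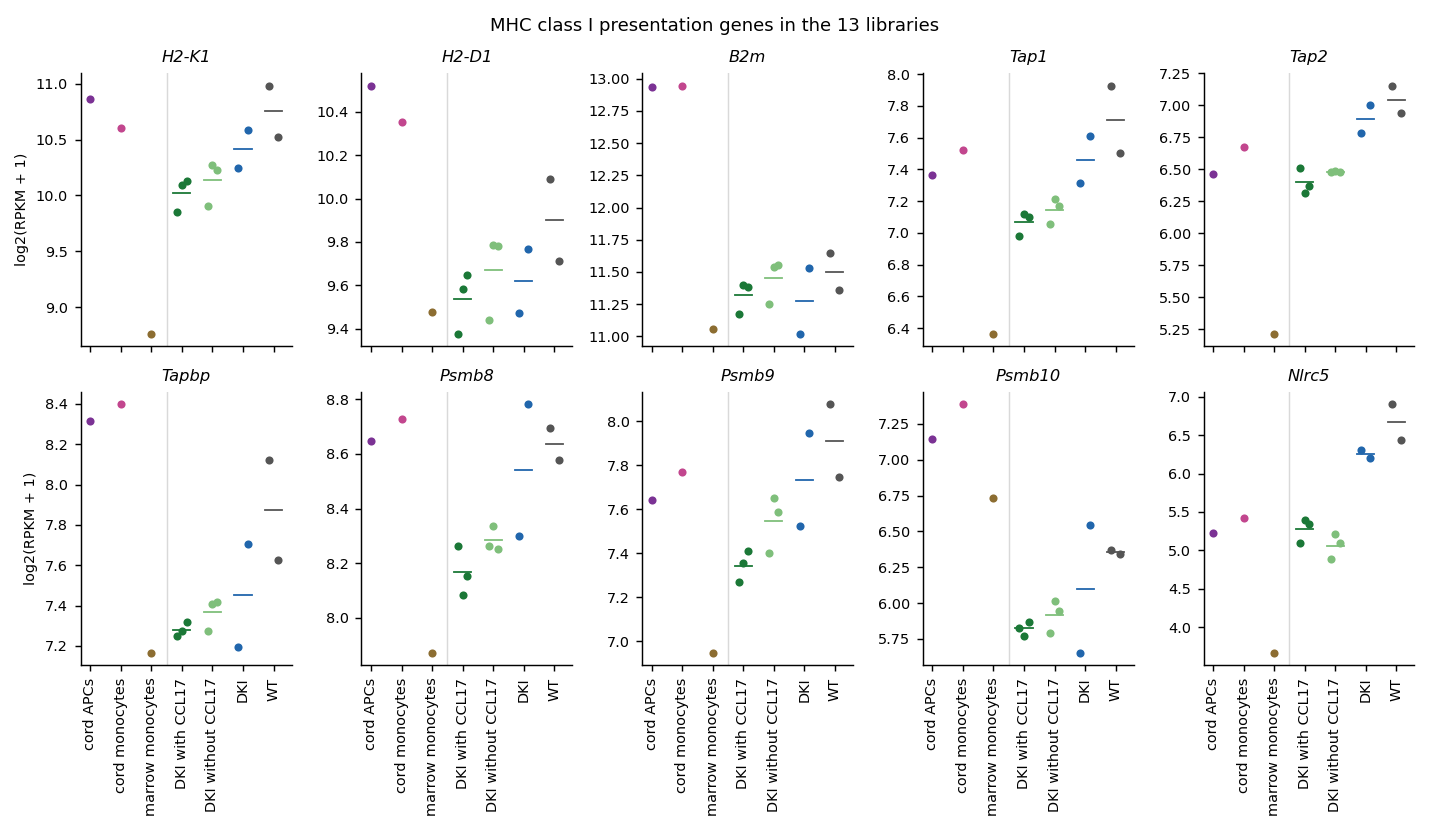
Each panel plots the log2(RPKM + 1) level of 1 member (vertical axis) in 7 groups (horizontal axis), with a point per library and a line at the mean where a group has several libraries; the vertical axes differ and do not start at 0. Marrow monocytes are the lowest library for 7 of the 10 members, the others being H2-D1, B2m and Psmb10, and Nlrc5 separates the CCL17 comparison (4.89 to 5.39) from DKI and WT cells (6.20 to 6.90). The share of all genes that separate so was not counted.

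Among the loading genes, Tap1 and Tap2 encode the subunits of the peptide transporter and Tapbp encodes tapasin. Tap1 was 7.36, 7.52 and 6.36 in cord APCs, cord monocytes and marrow monocytes. Its Th17 levels were 6.98, 7.12 and 7.10 with CCL17, 7.06, 7.21 and 7.17 without, 7.31 and 7.61 in DKI cells, and 7.93 and 7.50 in WT cells. All 6 libraries of the CCL17 comparison therefore lay below all 4 DKI and WT libraries. How many of all genes divide this way was not counted. Tap2 kept the same division, at 6.31 to 6.51 in the CCL17 comparison and 6.78 to 7.15 in DKI and WT cells, with 6.47, 6.67 and 5.21 in the 3 myeloid groups. Tapbp did not. It was 7.25, 7.27 and 7.32 with CCL17, 7.28, 7.41 and 7.42 without, 7.20 and 7.71 in DKI cells, and 8.12 and 7.63 in WT cells. DKI replicate 1 was the lowest of these Th17 libraries and DKI replicate 2 lay within the WT range, and the myeloid values of Tapbp were 8.32, 8.40 and 7.17.

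The immunoproteasome genes encode the inducible catalytic subunits. Psmb8 was 8.65, 8.73 and 7.87 in cord APCs, cord monocytes and marrow monocytes, and 8.08 to 8.78 over the 10 Th17 libraries. Psmb9 was 7.64, 7.77 and 6.95 in the myeloid groups and 7.27 to 8.08 in the Th17 libraries, of which WT replicate 1 was the highest. Psmb10 was the member with the widest DKI pair. It was 5.65 and 6.55 in DKI cells, against 6.37 and 6.34 in WT cells, so that the DKI libraries lay on both sides of the WT pair. Psmb10 also had its 3 myeloid libraries (7.14, 7.39 and 6.73) above every Th17 library, a pattern shared by no other member.

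Nlrc5, whose product switches on class I genes, was 5.23 in cord APCs, 5.42 in cord monocytes and 3.67 in marrow monocytes. In Th17 cells it was 5.09, 5.39 and 5.35 with CCL17, 4.89, 5.21 and 5.09 without, 6.31 and 6.20 in DKI cells, and 6.90 and 6.44 in WT cells. The WT libraries were the highest of all 13, the DKI libraries came next without overlap, and the 6 libraries of the CCL17 comparison lay at or below the cord monocytes. In the order of group means, the groups next to each other overlapped at 1 step, between DKI cells with CCL17 and the single APC library.

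Th17 cells of DKI mice were set against those of WT mice, the comparison that bears on STAT5 tetramers in T cells. All 10 members had lower means in DKI than in WT cells, by 0.10 to 0.42 on the log2 scale with a median of -0.25, but none passed the test. Over all 11789 genes the median difference was 0.03 and 46.1% were lower. Limma called 0 genes (0%) at an adjusted p under 0.05, and 919 higher and 968 lower at an unadjusted p under 0.05. Nlrc5 averaged 6.26 ± 0.08 in DKI cells and 6.67 ± 0.32 in WT cells (SD, n = 2 each), a difference of -0.41 (SE 0.17, adjusted p = 0.296). It was the 1 member of 10 whose groups did not overlap, where 20.3% of all genes were lower in this way. Tapbp averaged 7.45 ± 0.36 in DKI cells and 7.87 ± 0.35 in WT cells and differed by -0.42 (SE 0.19, adjusted p = 0.323). The differences were smaller without WT replicate 1, when the members' median was -0.09, with Nlrc5 at -0.19, Tapbp at -0.17, H2-K1 at -0.11 and Tap1 at -0.04.

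The libraries of the remaining members overlapped between the groups. H2-K1 differed by -0.34 (SE 0.22), H2-D1 by -0.28 (SE 0.19) and B2m by -0.22 (SE 0.23), with adjusted p-values of 0.459, 0.493 and 0.651. The transporter genes Tap1 (-0.25, SE 0.15) and Tap2 (-0.15, SE 0.11) and the immunoproteasome genes Psmb8 (-0.10, SE 0.15), Psmb9 (-0.18, SE 0.17) and Psmb10 (-0.26, SE 0.23) had adjusted p-values of 0.436 to 0.778. The direction was not stable for 4 of them. Without DKI replicate 1, B2m was at 0.03, Psmb8 at 0.15, Psmb9 at 0.03 and Psmb10 at 0.19, and the members' median moved to -0.07. Without DKI replicate 2, Psmb10 was at -0.70. With 1 DKI library left out the other is assumed to vary like the remaining Th17 groups, from which the spread is then taken.

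Other genes of the pathway did not share 1 direction. The class I partners, which fold class I molecules, trim peptides or carry them (8 genes, including calnexin Canx at 0.27 and the protease gene Ide at 0.28), had a median of 0.28. The standard proteasome and PA28 genes had a median of 0.24 over 7 genes, with the catalytic subunit gene Psmb5 at 0.37 (SE 0.12, adjusted p = 0.196). The class Ib genes, relatives of H2-K1 such as H2-T22 (-0.83) and H2-T24 (-0.94), were below 0 in 10 of 11 cases with a median of -0.44. No gene of these lists passed the test.

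The interferon response list was below 0 in 31 of 31 genes, with a median of -1.19 and none called. Its library medians were 4.38 and 5.41 in DKI cells and 6.95 and 5.24 in WT cells. They follow the order in which the members' medians stood, 7.42 and 7.83 in DKI cells and 8.10 and 7.69 in WT cells, as WT replicate 1 was the highest and DKI replicate 1 the lowest in both. Myeloid markers were below 0 in 8 of 8 genes with a median of -0.96 and none called. Their summed RPKM was 20.4 and 33.1 in DKI libraries and 87.1 and 46.2 in WT libraries, again with these 2 replicates at the ends. B cell markers summed to 6.22 and 14.9 RPKM in DKI libraries and 9.45 and 13.6 in WT libraries. The part of either in the members' differences was not tested.

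**Figure D2:**
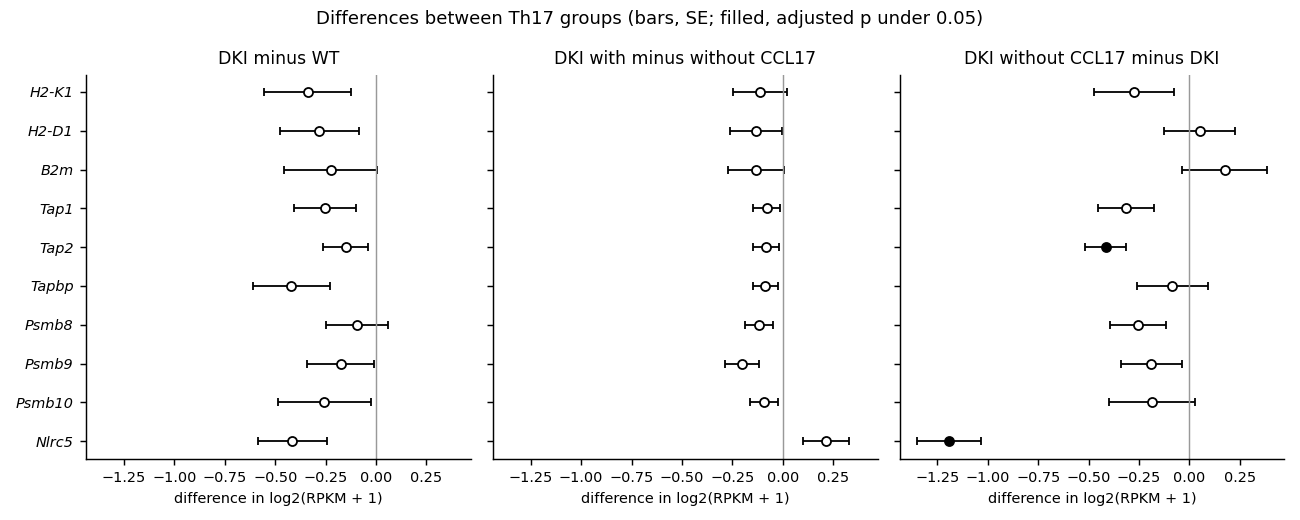
Each panel plots the difference in log2(RPKM + 1) between 2 Th17 groups (horizontal axis, the first group named minus the second) for the 10 members (rows), with bars for the SE; filled points have a limma adjusted p under 0.05 over all genes tested. All 10 points lie below 0 for DKI minus WT with none filled, 9 lie below 0 with minus without CCL17 with none filled, and in the panel of DKI without CCL17 minus DKI the filled points are Nlrc5 (-1.19) and Tap2 (-0.42).

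The addition of CCL17 to DKI cultures was compared with its absence. Differences were small, with 9 of 10 members lower, Nlrc5 higher, a median of -0.10 and none called. All genes had a median of -0.01 and 54.2% were lower, and limma called 0 of 11297 (0%), with 239 higher and 172 lower at an unadjusted p under 0.05. Psmb9 averaged 7.34 ± 0.07 with CCL17 and 7.55 ± 0.13 without (SD, n = 3 each), a difference of -0.20 (SE 0.08, adjusted p = 0.999). Nlrc5 averaged 5.28 ± 0.16 with CCL17 and 5.06 ± 0.16 without, a difference of 0.22 (SE 0.11, adjusted p = 0.999). When 1 library was left out Nlrc5 ran from 0.13 (without the first library lacking CCL17) to 0.31 (without the first with CCL17), and H2-K1 from -0.23 to -0.03 for the same libraries. The libraries of the 2 groups overlapped for all 10 members, where 4.28% of all genes were lower and 5.2% higher without overlap.

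Libraries with the same replicate number deviated together in this comparison, with correlations of 0.76, 0.49 and 0.50. Replicates 2 and 3 did so nearly as much across numbers (0.47 and 0.49), so the numbers are not shown to pair these libraries. The members were also followed within pairs of the same number, as a description. Nlrc5 was higher with CCL17 in all 3 pairs, by 0.20, 0.18 and 0.26, but the share of all genes higher in every pair was not counted. H2-K1, H2-D1, B2m, Tap1, Tapbp and Psmb9 were lower in all 3 pairs, which makes 6 of 10 members, where 20.1% of all genes were lower in every pair. For H2-D1 the pairs differed by -0.07, -0.20 and -0.13, and for Psmb9 by -0.13, -0.30 and -0.18. Tap2, Psmb8 and Psmb10 were slightly above 0 in the first pair (0.04, 0.002 and 0.03) and below 0 in the others. With the replicate number as a block, the adjusted p was 0.148 for Nlrc5 and 0.159 for Psmb9, and the 2 genes called out of 11297 (0.0177%) were not members. The standard proteasome and PA28 genes were also below 0, in 7 of 7 cases with a median of -0.11. In the interferon response list 22 of 31 genes were below 0 with a median of -0.03, and in the myeloid markers 8 of 8 with a median of -0.21, their summed RPKM being 640, 801 and 828 with CCL17 and 673, 1008 and 1026 without. The part of the myeloid markers was not tested.

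DKI cells named as without CCL17 and the DKI cells set against WT have the same labelled treatment, and comparing them shows how far such cultures lay apart. The labels do not say whether they were cultured together, so a batch cannot be told apart from the groups. Nlrc5 and Tap2 were lower in the cultures without CCL17 and the heavy and light chain genes did not pass the test. Nlrc5 averaged 5.06 ± 0.16 in DKI cells without CCL17 (SD, n = 3) and 6.26 ± 0.08 in DKI cells (SD, n = 2), 2.29-fold lower in RPKM + 1 (log2 difference -1.19, SE 0.16, adjusted p = 0.00108). Tap2 averaged 6.48 ± 0.006 without CCL17 and 6.89 ± 0.16 in DKI cells, a difference of -0.42 (SE 0.10, adjusted p = 0.0157). These were 2 of 10 members called, both lower, where 33% of 11789 genes were called, 15.3% higher and 17.7% lower, so the share of members called lower is near that of all genes. Called genes were higher in 46.3% of cases as analysed and in 35.6% after quantile normalization.

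Means were lower for 8 of 10 members, where 51.9% of all genes were lower. Tap1 also did not overlap between these groups, which makes 3 of 10 members lower without overlap against 29.8% of all genes, but its difference of -0.31 (SE 0.14) missed the threshold (adjusted p = 0.118). H2-K1 was at -0.28 (SE 0.20, adjusted p = 0.317), whereas H2-D1 was at 0.05 (SE 0.18, adjusted p = 0.853) and B2m at 0.17 (SE 0.21, adjusted p = 0.560), and quantile normalization turned these last 2 to -0.05 and -0.09. Psmb8, Psmb9, Psmb10 and Tapbp lay between -0.26 and -0.08. The members' median was -0.22 and that of all genes -0.02. With 1 DKI library left out, the other is again assumed to vary like the remaining groups. Without DKI replicate 1, Psmb8 was at -0.50 and Psmb10 at -0.63. Without DKI replicate 2, Tap2 was at -0.30 and no longer passed the test, and Nlrc5 was at -1.25. Over 12 alternative settings Nlrc5 stayed between -1.27 and -1.11, with adjusted p-values of 0.000799 to 0.00652.

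NLRC5 acts with RFX, CREB and NF-Y proteins, whose genes did not share 1 direction. Of the RFX genes, Rfxank at -0.69 (SE 0.11) and Rfx5 at -0.49 (SE 0.13) were called lower, while Rfxap did not pass at -0.30 (SE 0.12). The NF-Y gene Nfyb was called higher, and Nfya, Nfyc and Creb1 were not called. Of the 14 class I regulators, 3 rose and 3 fell, where 15.3% of all 11789 genes were called higher and 17.7% lower. Those that rose were the class II transactivator gene Ciita (0.59), Irf8 (1.22) and Nfyb (0.37), and Rela (-0.30), a subunit of NF-κB, fell with the RFX genes. Among the standard proteasome genes Psmb5 (0.46) and Psmb6 (0.36) rose and the PA28 gene Psme1 (-0.44) fell. Of the 11 class Ib genes 10 were below 0, with a list median of -0.44, and 1 passed the test, Mr1 (-0.44). The interferon response list had 25 of 31 genes below 0 and a median of -0.48, and 2 passed the test, Igtp (-0.98) and Irf9 (-0.59). Of the interferon receptor genes, Ifnar1 (-0.51) and Ifngr1 (-0.95) fell, while those of the partner subunits did not pass, Ifnar2 at 0.33 (adjusted p = 0.0631) and Ifngr2 at 0.36 (adjusted p = 0.224). Of the class II genes 7 of 10 rose, among them Cd74 (2.00) and H2-Eb1 (2.17).

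Markers of other cells moved with these differences. All 8 myeloid markers were higher (median 4.06), with summed RPKM of 673, 1008 and 1026 in DKI cells without CCL17 and 20.4 and 33.1 in DKI cells. All 4 B cell markers were higher (median 2.40), at 54.2 to 86.0 and 6.22 to 14.9 summed RPKM in the same order of groups, and all 6 T cell markers were below 0 (median -0.36), of which 4 passed the test. Their part in the members' differences was not tested. Of the 6 microglia markers, Sall1 was at 0 in every Th17 library and Gpr34 was at 1.94 to 6.19 RPKM. Tmem119, P2ry12 and Olfml3 were above 0 in every Th17 library, at 0.944 RPKM or less, and Siglech was at 0.102 RPKM or less.

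**Figure D3:**
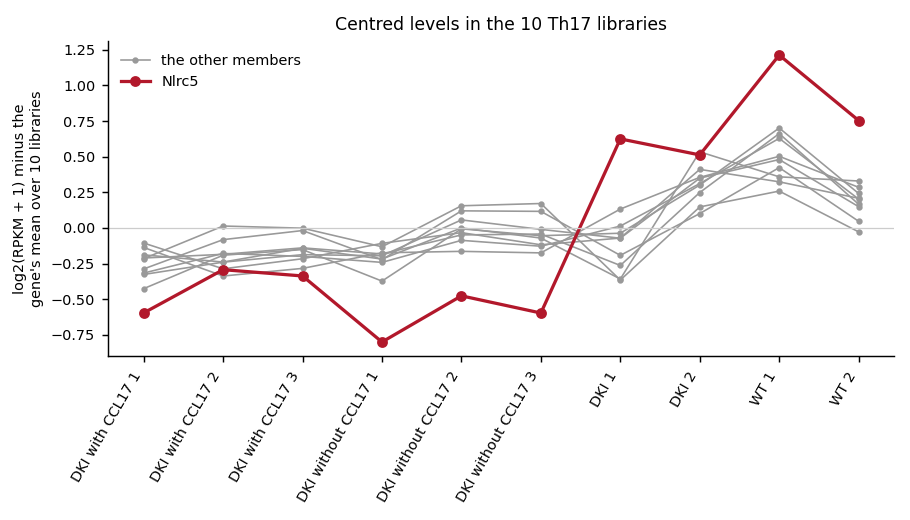
The vertical axis is log2(RPKM + 1) minus each gene's own mean over the 10 Th17 libraries, which are listed along the horizontal axis; the red line is Nlrc5, the grey lines are the other 9 members, and lines join libraries only as a guide. The grey lines stay within about 0.7 of their means, and Nlrc5 runs below -0.2 in the 6 libraries of the CCL17 comparison and above 0.5 in the DKI and WT libraries.

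Among the members, Nlrc5 had the profile over the Th17 libraries that lay furthest from their mean profile. Likeness was measured as the root-mean-square difference between profiles after each gene was centred on its mean over the 10 libraries, on the log2 scale. The other 9 members lay 0.04 (Tap1) to 0.22 (B2m) from the mean profile of the 10, and Nlrc5 lay 0.45 from it. The median over all genes was 0.33. Each member is part of that mean, which brings it nearer, so the members' distances and this median are not like measures. Nlrc5 also varied most, with an SD of 0.71 over the 10 libraries, against 0.19 to 0.34 for the others. H2-K1 and Tap1 were each other's nearest member (0.07), as were H2-D1 and B2m (0.10). The nearest member to Nlrc5 was H2-K1, at 0.42. Among 9931 ranked genes outside the set, the profiles nearest to the members' mean included those of Nmi (0.07), Casp8 (0.07), H2-T9 (0.07) and Arid4b (0.08). All genes were read from the same 10 libraries, which differ in depth and in their myeloid markers, so likeness is a description.

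The inducible catalytic subunits were also set beside the standard subunits whose places they take in the proteasome, without a test. Psmb8 exceeded Psmb5 in every library. The difference was 2.56, 2.36 and 2.30 with CCL17, 2.42, 2.38 and 2.28 without CCL17, 2.90 and 3.27 in DKI cells, and 3.77 and 3.34 in WT cells. Psmb9 minus Psmb6 was 0.52 to 0.77 with CCL17, 0.61 to 0.78 without, 1.21 and 1.33 in DKI cells, and 1.92 and 1.44 in WT cells. Psmb10 minus Psmb7 was -1.19 to -1.04 with CCL17, -1.32 to -0.93 without, -0.79 and -0.26 in DKI cells, and 0.20 and -0.14 in WT cells. For each of the 3 pairs the DKI libraries lay below the WT libraries and above the libraries without CCL17, with no overlap, although neither Psmb8, Psmb9 nor Psmb10 alone separated DKI from WT cells. Of the standard subunits, Psmb5 was 4.93 and 5.24 in WT cells and 5.40 and 5.51 in DKI cells. Psmb6 was 6.15 and 6.30 in WT cells and 6.32 and 6.61 in DKI cells. Both were thus higher in DKI cells by themselves without overlap, whereas Psmb7 overlapped (6.17 and 6.48, 6.44 and 6.81). Of all 11789 genes, 19.3% were higher in DKI than in WT cells without overlap. Without CCL17 all 3 standard subunits lay above the DKI libraries, where 25.8% of all genes did so. Of all 11789 single genes, 11.9% had DKI libraries below WT and above those without CCL17 without overlap. This share is not for differences between 2 genes, and the 3 pairs come from the same libraries. In the cord APCs the differences were 3.96, 0.71 and 0.48, in cord monocytes 4.03, 0.84 and 0.59, and in marrow monocytes 2.65, 0.52 and -0.27. The cord libraries were thus above the marrow library for all 3 pairs.

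**Figure D4:**
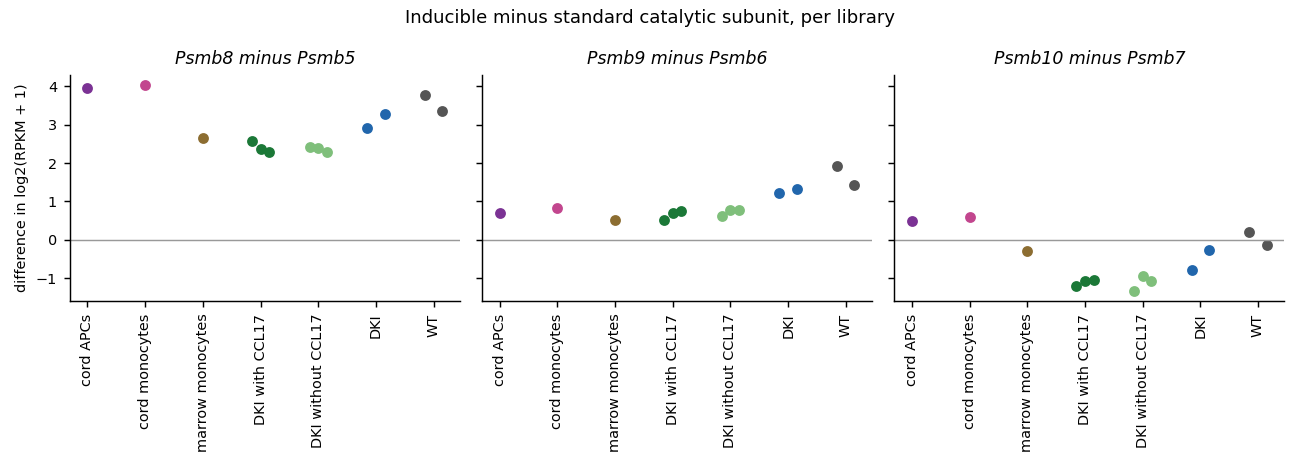
The vertical axis is the difference in log2(RPKM + 1) between an inducible catalytic subunit and the standard subunit it replaces, with a point for each library in the 7 groups on the horizontal axis and a line at 0. In each panel the DKI points lie below the WT points and above those of both groups of the CCL17 comparison, and marrow monocytes lie below both cord libraries.

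Spinal cord monocytes were compared with bone marrow monocytes to describe monocytes in the inflamed tissue beside those at their source. All 10 members were higher in the cord library, by 1.58 to 3.70-fold in RPKM. B2m was 3.70-fold higher (95% counting interval 3.66 to 3.73), H2-K1 3.59-fold (3.53 to 3.64) and Nlrc5 3.56-fold (3.41 to 3.72, from an estimated 7685 reads in the cord and 2590 in the marrow library). Loading genes came next, with Tap2 at 2.79-fold (2.69 to 2.90), Tapbp at 2.36-fold (2.31 to 2.41) and Tap1 at 2.24-fold (2.18 to 2.31). H2-D1 was 1.83-fold higher (1.81 to 1.86). The immunoproteasome genes had the smallest ratios, Psmb8 at 1.81 (1.77 to 1.85), Psmb9 at 1.77 (1.71 to 1.84) and Psmb10 at 1.58 (1.52 to 1.64). The 2 heavy chain genes thus differed in their ratios by more than counting error.

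No member reached the 4-fold difference that 11.4% of 8182 genes reached (6.23% higher and 5.13% lower). The members' median log2 difference was 1.19, while the median gene was at -0.37 and 31.5% of genes were higher at any size. Relative to the median gene of each library, the members' median was 1.50 and B2m (2.19), H2-K1 (2.14) and Nlrc5 (2.05) passed 4-fold. There is 1 library a group, so the differences have no replicate check, no p-value is given, and the intervals cover counting error only.

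Around the members, the class Ib genes were higher in 9 of 9 cases measured, with H2-Q6 (4.51), H2-Q7 (3.80) and H2-Q4 (2.90) past 4-fold on the log2 scale, of which H2-Q7 shares transcript sequence with H2-K1 and H2-D1. Of 9 class II genes, 7 passed 4-fold, and the list's median was 3.999. The interferon response list had 29 of 31 genes higher, 14 of them 4-fold, its median being 1.98, with Cxcl10 at 6.74. Among the regulators Ciita differed by 3.999 and Irf1 by 2.72. The standard proteasome and PA28 genes had a median of -0.07, with no common direction among the PA28 genes Psme1 (1.01), Psme2 (0.82) and Psme3 (-0.83) or the catalytic subunit genes Psmb5 (-0.53), Psmb6 (0.50) and Psmb7 (-0.21), and the class I partners had a median of -0.54. Microglia markers moved with the members, 5 of 5 measured being higher at summed RPKM of 119 in the cord and 11.1 in the marrow, as did T cell markers at 22.5 and 0.0801. Granulocyte markers moved against them, at 54.7 and 1300.5. The part of these cells in the members' differences was not tested.

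**Figure D5:**
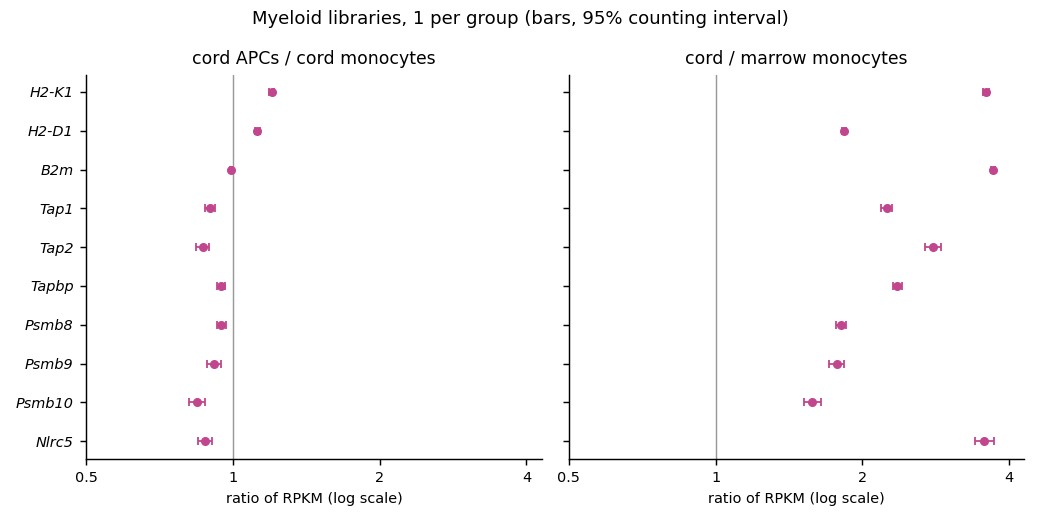
The horizontal axis is the ratio of RPKM on a log scale, for cord APCs over cord monocytes (left) and cord over marrow monocytes (right), with a row for each member and bars for the 95% counting interval; each group is 1 library. Ratios for cord APCs run from 0.843 to 1.20, and those for cord over marrow monocytes from 1.58 to 3.70.

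Spinal cord APCs differed little from spinal cord monocytes in the pathway. H2-K1 was 1.20-fold higher in APCs (95% counting interval 1.19 to 1.21) and H2-D1 1.12-fold higher (1.11 to 1.13). The other 8 members were lower. B2m had a ratio of 0.993 (0.986 to 0.999), and the ratio was 0.843 for Psmb10 (0.811 to 0.877), 0.867 for Tap2 (0.840 to 0.894), 0.876 for Nlrc5 (0.847 to 0.906) and 0.896 for Tap1 (0.874 to 0.918). Tapbp (0.945), Psmb8 (0.947) and Psmb9 (0.916) lay between these. None of the members was among the 24 of 7499 genes (0.32%) past 4-fold. Their median log2 difference was -0.10, the median gene was at 0.03, and 45% of genes were lower.

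All 10 class II genes were higher in APCs (median 0.96), led by H2-DMb2 (1.92), and interferon response genes were lower in 30 of 31 cases with a median of -0.83. Irf1, an interferon-induced regulator, differed by -0.60. The class Ib list had 8 of 10 genes higher and a median of 0.18. All 6 microglia markers were higher, with summed RPKM of 351 in APCs and 119 in cord monocytes, and granulocyte markers summed to 182 and 54.7. All 4 classical monocyte markers were lower, at summed RPKM of 802 in APCs and 3451 in cord monocytes. Of the 5 dendritic cell markers 2 were measured, both higher, and the 5 summed to 80.8 and 8.51 RPKM in the same order. Their part was not tested, and with 1 library a group the 2 cell types cannot be told apart from the 2 libraries.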

How the data were processed

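RNA was measured by mRNA sequencing in 13 libraries. Subread, featureCounts and build mm10 are named per the submitters' processing notes. Their versions and the annotation are not given in the sources used here. As deposited, the table held log2(RPKM + 1) values for 21073 genes, where RPKM is reads scaled to gene length and to assigned reads, as made by the authors. The log base was settled from the values, which summed after length weighting to 1030000 to 1071000 per library in base 2. Genes without reads carried 0.0001 and were set to 0. The APC values were read from a column whose name abbreviates cells derived from monocytes, matched by elimination since 1 sample and 1 column were left. Symbols and positions are from RefSeq (GRCm38.p6), which matched 20857 identifiers.

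Th17 groups were compared with limma 3.58.1 (R 4.3.3) on log2(RPKM + 1), eBayes with trend, with Benjamini-Hochberg adjustment over genes with RPKM of at least 1 in at least 2 libraries (3 for CCL17). The contrasts that involve the DKI pair were taken from a fit of all 10 Th17 libraries, and CCL17 used its own 6. Myeloid groups have 1 library each and were compared without a test, over genes that reached an RPKM of 5 in either library. Intervals are exact 95% binomial intervals (Clopper-Pearson) on reads estimated from the steps between low values, of which 74.3% to 76.9% lay within 0.1 of a whole read. They cover counting error only, as PCR copies are not independent molecules. In the CCL17 comparison, residuals of same-numbered libraries correlated across genes at 0.76, 0.49 and 0.50. Replicates 2 and 3 also correlated across numbers (0.49 and 0.47), and no label says what a number marks.

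All 10 members are named in every comparison, and from 7 lists of related genes up to 4 with the smallest p or largest difference, along with marker genes. Values of 2 genes so named are not reported here. Members and lists were chosen with earlier results of these data known. On simulated data with shifts of 1 log2 unit, the fit found 64.5% of changed genes for DKI against WT (11789 genes), 85% for CCL17 (11297) and 68.5% between the DKI groups (11789). Alternatives were another pseudocount, filter, scaling, trend or set of libraries, the replicate block and each library left out.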

Additional observations from a re-analysis of the deposited data

How the results depend on the processing

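For DKI against WT, limma called 23 genes with no filter on low values, and 0 to 485 when 1 library was left out (106 without WT replicate 2, 7 without DKI replicate 1, 485 without DKI replicate 2). With 0 to 1 members called across these, the members' median was -0.42 to -0.07. Same-numbered DKI and WT libraries correlated at 0.42, and 2 pairs do not show that the numbers pair them. With the replicate block there were 1129 genes and 1 member called, Nlrc5 at -0.41 (adjusted p = 0.0456). Leaving out 1 library gave B2m -0.48 to 0.032, Psmb8 -0.34 to 0.15, Psmb9 -0.39 to 0.035 and Psmb10 -0.70 to 0.19. For CCL17, the replicate block called 2 genes, and leaving out 1 library called 0 and gave a median of -0.14 to -0.07. For DKI without CCL17 against DKI, the 5 compared libraries alone gave 2423 calls, and leaving out 1 library gave 2565 to 3657 calls, 1 to 4 members called and a median of -0.45 to 0.00. The ranges there were -0.10 to 0.20 for H2-D1, -0.0825 to 0.43 for B2m, -0.34 to 0.17 for Tapbp, -0.40 to 0.022 for Psmb9 and -0.63 to 0.26 for Psmb10. Quantile normalization gave H2-D1 -0.053 and B2m -0.086, and the replicate block H2-D1 -0.0056. For cord against marrow monocytes, median centring gave 3 members past 4-fold and a median of 1.50. The causes were not tested. Groups of 1 to 3 libraries limit the precision of every comparison, whatever the read depth.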
